A study of Homo sapiens with 30 samples.

Results

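The 10 genes described here, BCL6, PAX5, EBF1, MEF2B, IRF8, SPIB, POU2AF1, BACH2, IKZF1 and FOXO1, encode transcription factors and co-activators of germinal centre B cells. They were chosen by name from 59665 annotated human genes. All deposited peaks that lay inside one of these genes or within 10 kb of it were taken, which gave 43 of 21268 H3K4me3 peaks and 245 of 63580 H3K27ac peaks. A peak that reached to within 1000 bp of a gene's own RefSeq start was called a promoter peak, a peak equally near the start of a neighbouring gene was set apart, and the rest were called enhancer peaks. This is a class of position: for H3K27ac it is where enhancers are looked for, and for H3K4me3 it means a peak away from annotated starts. The H3K4me3 peaks were 10 promoter, 4 neighbouring-gene and 29 enhancer peaks, and the H3K27ac peaks were 14, 16 and 215.

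The cells were OCI-Ly1, an established human cell line from a diffuse large B-cell lymphoma. They received JIB-04, a small molecule that inhibits histone demethylases of the Jumonji family, at a lower dose of 150 nM or a higher dose of 500 nM. Controls received the solvent DMSO at 0.01%. The length of treatment is not given in the sources used here. Chromatin immunoprecipitation with sequencing (ChIP-seq) gave 2 libraries for each treatment and mark, 12 in all, so the means and SDs below have n = 2. The exception is H3K4me3 at 150 nM, where the 2 libraries differed by less than the sampling noise and count as 1 sample. Both libraries stay in the fits, and counts of calls are also given with their mean as 1 sample. The labels do not say whether the 2 libraries of a group came from separate cultures, so p-values measure only the spread between these samples.

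H3K4me3 is a histone methylation mark deposited around active promoters, and H3K27ac is an acetylation mark of active promoters and enhancers. In textbook accounts EBF1 and PAX5 commit cells to the B lineage, IKZF1 and FOXO1 act with them in B-cell development, and BCL6 is the repressor that maintains the germinal centre state. MEF2B and IRF8 are activators of BCL6, BACH2 restrains plasma cell differentiation, SPIB is a B-cell member of the ETS family, and POU2AF1 is the co-activator that sits on octamer DNA with OCT proteins. H3K4me3 domains that spread far beyond the start site are known from genes of cell identity.

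Counts inside peaks totalled 9686420 to 12327122 per H3K4me3 library and 4360660 to 5410292 per H3K27ac library. The labelled cell type was checked against promoter peaks of marker genes. H3K4me3 promoter peaks were present at 7 of 7 B-cell markers (MS4A1, CD79A, CD79B, CD22, CR2, BLK and CD37) and at 6 of 7 germinal centre markers, without SERPINA9. The peak set is shared by all libraries, so a listed peak may have little signal in DMSO. The lowest DMSO levels were 7.4 CPM (CR2) among the B-cell markers and 1.1 CPM (LMO2) among the germinal centre markers. At 500 nM CR2 had 17.3 CPM and LMO2 had 6.32 CPM. Of the plasma cell markers (PRDM1, SDC1, TNFRSF17 and JCHAIN) 4 of 4 had an H3K4me3 and 3 of 4 an H3K27ac promoter peak (not SDC1). H3K4me3 promoter peaks were also present at 2 of 6 T-cell markers (CD3D and TCF7), 1 of 5 myeloid markers (CD14) and 1 of 3 erythroid markers (KLF1). For H3K27ac it was 2 of 6 (CD3E and CD3D), 0 of 5 and 0 of 3. H3K27ac promoter peaks were present at 6 of 7 B-cell markers (not CR2) and 6 of 7 germinal centre markers (not SERPINA9). In DMSO CD3D, TCF7, CD14 and KLF1 had 8.58, 22.9, 10.7 and 21.6 CPM of H3K4me3. The summed H3K4me3 of the 4 plasma cell promoters was 148.7 to 158.3 CPM in DMSO and 196.5 to 203.4 CPM at 500 nM. The summed H3K4me3 of the 2 T-cell promoters was 29.9 to 33.2 CPM in DMSO and 44.2 to 44.7 CPM at 500 nM. For the 7 B-cell promoters it was 775.9 to 805.5 CPM in DMSO and 707.1 to 715.5 CPM at 500 nM. For the 6 germinal centre promoters, BCL6 among them, it was 887.7 to 894.2 CPM in DMSO and 809.6 to 813.5 CPM at 500 nM. Members of a list differed. For 500 nM against DMSO the plasma cell log2 fold changes were 2.59 (SDC1), 0.58 (TNFRSF17), 0.13 (PRDM1) and 0.03 (JCHAIN). Those of the T-cell genes were 0.62 (TCF7) and 0.09 (CD3D). The part of these shifts in the results below was not tested. CPM here is the read count of a peak normalised to the reads in all tested peaks of its mark, after TMM scaling, so a change common to all peaks is not measured.

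SPIB had the largest H3K4me3 promoter fall of the 10, MEF2B had a smaller rise than IRF8, and BCL6 is the central repressor of the set. The upstream sequences of these 3 genes are shown as examples, without a test of any link to the changes. Each is the 250 bases before a RefSeq start in GRCh38.p14, read along the gene's strand, and capitals mark matches to the motifs searched.
BCL6 (chr3:187745469-187745718, minus strand): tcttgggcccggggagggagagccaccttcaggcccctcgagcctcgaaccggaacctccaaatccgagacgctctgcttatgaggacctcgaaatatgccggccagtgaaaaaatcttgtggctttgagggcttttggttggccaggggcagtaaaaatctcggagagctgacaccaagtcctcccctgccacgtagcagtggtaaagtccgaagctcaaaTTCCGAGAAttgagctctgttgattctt
SPIB (chr19:50418688-50418937, plus strand): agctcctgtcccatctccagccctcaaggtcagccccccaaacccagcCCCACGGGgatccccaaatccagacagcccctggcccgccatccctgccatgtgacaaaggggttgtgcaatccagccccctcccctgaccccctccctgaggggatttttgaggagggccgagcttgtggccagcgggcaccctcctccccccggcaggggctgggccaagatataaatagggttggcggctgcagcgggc
MEF2B (chr19:19170264-19170513, minus strand): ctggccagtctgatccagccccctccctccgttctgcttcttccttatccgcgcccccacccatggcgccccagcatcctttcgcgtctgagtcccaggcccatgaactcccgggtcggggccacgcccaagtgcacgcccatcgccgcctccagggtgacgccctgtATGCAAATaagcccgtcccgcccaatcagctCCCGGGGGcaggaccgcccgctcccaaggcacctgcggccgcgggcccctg
The capitals in BCL6 are a match to the BCL6/STAT pattern TTCNNNGAA, 28 bases before the start. BCL6 has 2 RefSeq starts, and the window of the other start held no match to any motif searched. At the start shown, the BCL6 window of 300 bases, which also takes in 50 bases after the start, held 4 matches to this pattern. This number was reached in 7 of 35116 RefSeq windows of that length. The pattern itself occurred at least once in 7.657% of the windows. The capitals in MEF2B are the octamer, which reads ATGCAAAT on this strand (ATTTGCAT on the other) and occurred in 1.774% of all windows, followed by a match to the EBF pattern CCCNNGGG, found in 19.07%. SPIB held 1 EBF match. Matches on both strands were counted, and no letters of one capital run belong to another motif. A match describes the letters in the window and says nothing of binding.

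Of the other patterns, TGGGAA (Ikaros; 24.03% of windows) was found in windows of EBF1, IRF8 and IKZF1, TATTTTTA (MEF2; 2.278%) in IKZF1, and GAAANNGAA (IRF; 8.107%) in FOXO1. A further EBF match lay in IKZF1. The patterns GAGGAAGT (SPI/ETS; 2.589%), TGCTGAGTC (BACH/MAF; 0.3503%) and TGTTTAC (FOXO; 3.423%) were in none of the 13 windows of the 9 genes that the RefSeq promoter table held. POU2AF1 had no entry, so a peak at either end of that gene counted as its promoter peak.

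The H3K4me3 promoter peaks of these genes, as deposited in 1 peak set for all libraries, were long. Each gene had 1 such peak, from 3275 bp at SPIB to 14615 bp at PAX5, whereas the 13631 H3K4me3 peaks at gene starts had a median length of 2022 bp and 18.57% of them reached 3000 bp. All 10 passed 3000 bp. Only 1 peak of the whole H3K4me3 table was longer than that of PAX5, 2 were longer than the 11694 bp of BCL6 and 14 were longer than the 10047 bp of IKZF1. Per kilobase the signal was ordinary: the DMSO level ran from 20.3 CPM per kb at MEF2B to 52.9 CPM per kb at POU2AF1, beside a median of 28.8 CPM per kb over peaks at gene starts. The lengths stood at percentiles 85.7 to 99.99 of the peaks at gene starts and the levels per kb at percentiles 35.25 to 95.5. No test was made of either, since peak length depends on the deposited consensus.

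**Figure D1:**
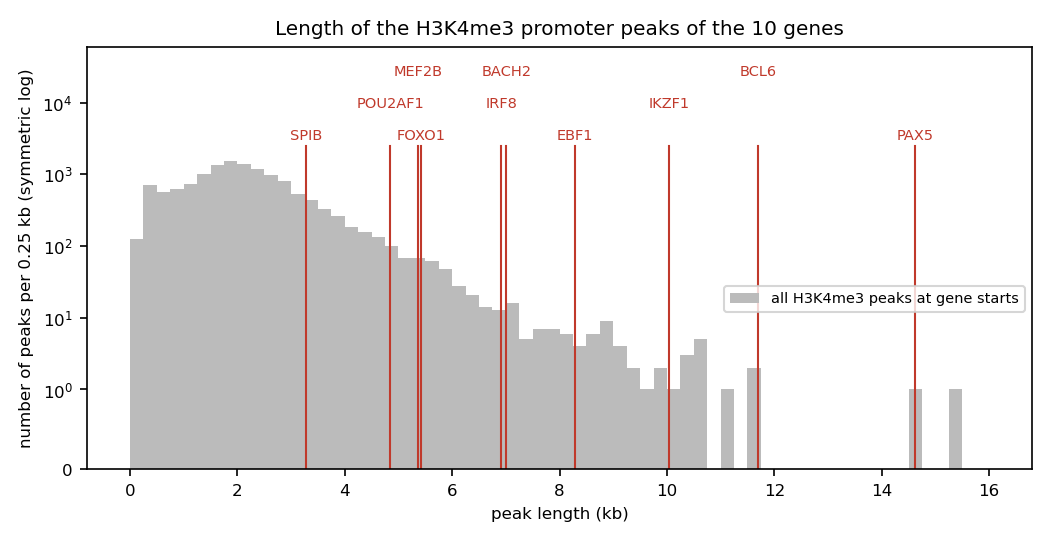
Lengths of all H3K4me3 peaks at gene starts (grey bars, number of peaks per 0.25 kb on a symmetric log scale) with the promoter peak of each of the 10 genes as a red line. The lines run from 3275 bp (SPIB) to 14615 bp (PAX5), beyond the median of 2022 bp.

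At 500 nM the H3K4me3 signal changed by small amounts over 7 of the 10 promoter peaks, which passed the test (edgeR quasi-likelihood, Benjamini-Hochberg adjusted p under 0.05 over all tested peaks), 5 lower and 2 higher. Over the whole series 39.4% of tested H3K4me3 peaks were called in this comparison, 20.7% higher and 18.7% lower, and among peaks at gene starts 40% were called, 19.4% higher and 20.6% lower. These promoters also have many counts: among the fifth of tested peaks with the most counts 39% were called, 34.2% lower and 4.8% higher. With scaling that follows abundance (loess offsets) the split was 2 lower (BCL6 and SPIB) and 3 higher (IRF8, MEF2B and BACH2). The median log2 fold change of the 10 was -0.09, beside -0.02 over all tested peaks at gene starts.

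BCL6, the germinal centre repressor, had 371 and 362.5 CPM of H3K4me3 in the DMSO libraries, 368.5 and 365.5 at the lower dose, and 335 and 317 at the higher dose in its promoter peak (chr3:187735884-187747577, which also covers part of BCL6-AS1). Both libraries at 500 nM lay below the other 4. The log2 fold change of 500 nM against DMSO was -0.17 ± 0.03 (SE; edgeR adjusted p = 2.78e-06). BCL6 was called lower under every alternative setting tried, with a smaller log2 fold change of -0.07 with loess offsets.

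SPIB, the ETS factor, had the largest fall among the promoters. Its peak (chr19:50417885-50421159, which also reaches POLD1) had 105 and 111 CPM in the DMSO libraries, 108 and 104 at the lower dose, and 84.3 and 83.8 at the higher dose. The 500 nM libraries stood below all others, and the log2 fold change was -0.36 ± 0.04 (SE; edgeR adjusted p = 7.52e-10). The signal fell by 22.05%. This call held under every alternative as well.

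The pair of lineage commitment factors differed in their calls. PAX5 (chr9:37023700-37038314) had 490 and 473 CPM in the DMSO libraries, 494 and 480 at the lower dose, and 446 and 436 at the higher dose. The log2 fold change was -0.13 ± 0.03 (SE; edgeR adjusted p = 1.37e-04). EBF1 (chr5:159094428-159102707) had 311 and 296 CPM in the DMSO libraries, 307 and 299 at the lower dose, and 289.7 and 290.7 at the higher dose. Both 500 nM values were below both DMSO values here too, but the log2 fold change of -0.07 ± 0.03 (SE) did not pass (edgeR adjusted p = 0.0663). With loess offsets it was 0.02. EBF1 passed without the second DMSO library (adjusted p = 0.00664) and with no filter on low counts (0.0341). Whether PAX5 and EBF1 differ was not tested.

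IKZF1, which encodes Ikaros (chr7:50303376-50313422), had 373 and 364 CPM in the DMSO libraries, 382 and 378 at the lower dose, and 338 and 327 at the higher dose. Its log2 fold change was -0.15 ± 0.03 (SE; edgeR adjusted p = 2.65e-05). POU2AF1 (chr11:111375649-111380493) had 254.5 and 258 CPM in the DMSO libraries, 256.5 and 258 at the lower dose, and 239.5 and 234 at the higher dose. Its log2 fold change was -0.11 ± 0.03 (SE; edgeR adjusted p = 0.00155). In both genes the 500 nM libraries were the lowest 2. The falls of PAX5, IKZF1 and POU2AF1 were not called with loess offsets, where the log2 fold changes were -0.02, -0.05 and -0.03, and that of POU2AF1 was not called in DESeq2 (adjusted p = 0.0782).

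IRF8 and MEF2B, the activators of BCL6, went up. The IRF8 promoter peak (chr16:85898278-85905195) had 154 and 148 CPM in the DMSO libraries, 165 and 166 at the lower dose, and 180 and 178 at the higher dose. The 3 groups did not overlap and stood in the order of dose. The log2 fold change of 500 nM against DMSO was 0.25 ± 0.03 (SE; edgeR adjusted p = 2.32e-08), a difference of 18.8%, and it was called under every alternative. The MEF2B promoter peak (chr19:19165607-19170966, inside the readthrough gene BORCS8-MEF2B as well) had 108 and 109 CPM in the DMSO libraries, 114 and 115 at the lower dose, and 118 and 116 at the higher dose. The log2 fold change was 0.11 ± 0.04 (SE; edgeR adjusted p = 0.0183), and 0.17 with loess offsets. The MEF2B call was lost in DESeq2 (adjusted p = 0.252), without the first DMSO library (0.136) and without the first 500 nM library (0.152).

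BACH2 and FOXO1 had no called difference. BACH2 (chr6:90291747-90298751) had 224 and 215 CPM in DMSO and 221 and 222 at 500 nM, and FOXO1 (chr13:40662664-40668077) had 233 and 250.1 CPM in DMSO and 233 and 242 at 500 nM. The treated libraries lay within or across the DMSO range in both genes. The log2 fold changes were 0.01 ± 0.03 (SE; edgeR adjusted p = 0.836) for BACH2 and -0.02 ± 0.03 (SE; edgeR adjusted p = 0.64) for FOXO1. With loess offsets BACH2 was called higher, at a log2 fold change of 0.09 (adjusted p = 0.0142), and FOXO1 was at 0.06 (not called).

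**Figure D2:**
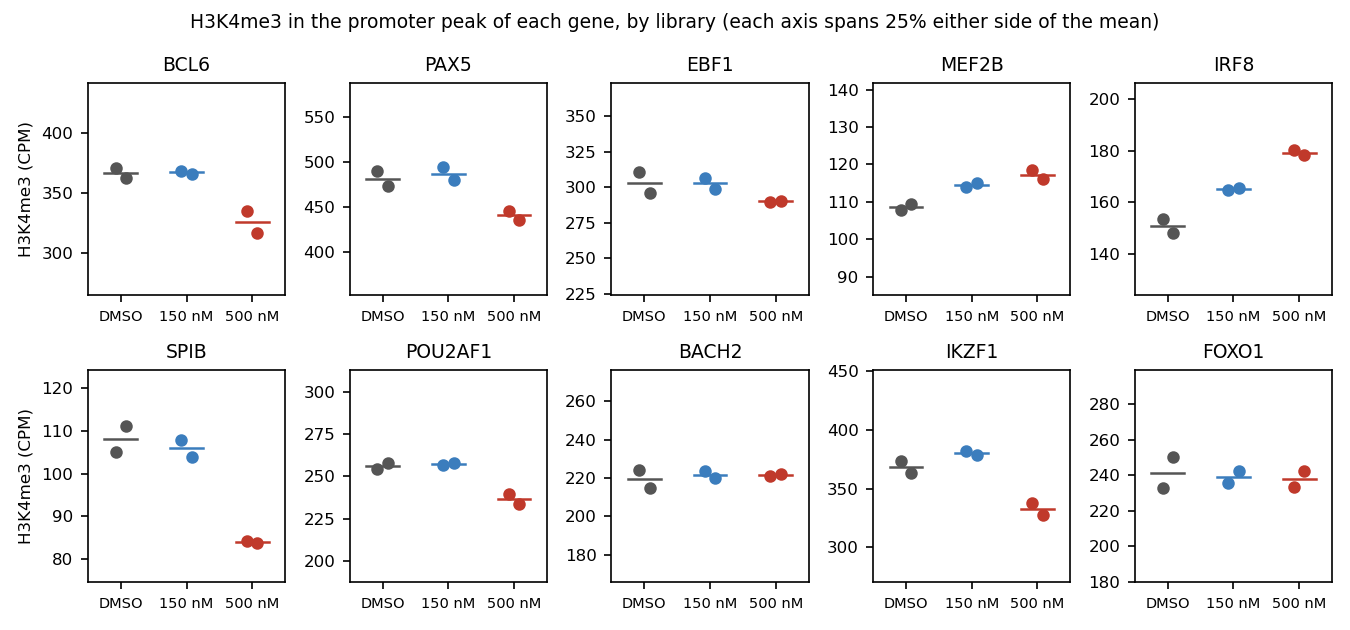
H3K4me3 (CPM) in the promoter peak of each gene, 1 point per library and a line at the mean of 2, for DMSO, 150 nM and 500 nM JIB-04; each axis covers 25% either side of that gene's mean and does not start at 0. SPIB falls from 105 and 111 to 84.3 and 83.8 CPM, and IRF8 climbs from 154 and 148 to 180 and 178 CPM.

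Away from gene starts the H3K4me3 peaks of these genes were weak but changed by more. Of 29 enhancer peaks 28 passed the filter on low counts (1 EBF1 peak did not), and 10 were called at 500 nM, 8 lower and 2 higher. Over all tested peaks away from starts 38.1% were called, 23% higher and 15.1% lower. The share called was near that background. Of the 28 peaks 13 had a positive and 15 a negative log2 fold change, with a median of -0.13, beside 0.13 over the 6943 tested peaks of this class. The difference from that class was not tested. The 8 lower peaks came from 6 genes, and neighbouring peaks of 1 gene are not independent. None of the 4 peaks at neighbouring genes (LOC105376032, LOC107986467, TMEM161A and MYBPC2) was called, and 1 of them had an unadjusted p under 0.05. With a window of 50 kb around the genes 26 peaks of any class were called in place of 17, 7 higher and 19 lower.

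The clearest case was an H3K4me3 peak of 3806 bp inside IRF8 (chr16:85908589-85912394), whose centre lay 7476 bp past the nearest listed start. It had 48.5 and 43.7 CPM in the DMSO libraries, 46.9 and 45.8 at the lower dose, and 19.9 and 18.1 at the higher dose. Both 500 nM libraries were far below the other 4, which overlapped each other. The log2 fold change of 500 nM against DMSO was -1.28 ± 0.08 (SE; edgeR adjusted p = 4.99e-21), so that it fell by 58.8%. Against 150 nM it was also -1.28 (edgeR adjusted p = 5.32e-21). The next IRF8 peak downstream (chr16:85912678-85913683) had 5.47 and 5.01 CPM in the DMSO libraries, 6.63 and 6.79 at the lower dose, and 2.81 and 2.65 at the higher dose, with a log2 fold change of -0.94 ± 0.23 (SE; edgeR adjusted p = 8.13e-04). Both calls held under every alternative. In the same gene the promoter peak had risen, so that H3K4me3 moved in opposite directions within IRF8.

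H3K27ac had no called difference at this site. The H3K27ac peak over the intragenic H3K4me3 peak of IRF8 (chr16:85908625-85911998) covered 88.7% of it and had 45.1 and 36.5 CPM in the DMSO libraries, 39.3 and 38.8 at the lower dose, and 39.4 and 44.2 at the higher dose. The groups overlapped, and the log2 fold change was 0.04 ± 0.13 (SE; edgeR adjusted p = 0.949). The marks were counted and scaled separately, and the difference between them was not tested.

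**Figure D3:**
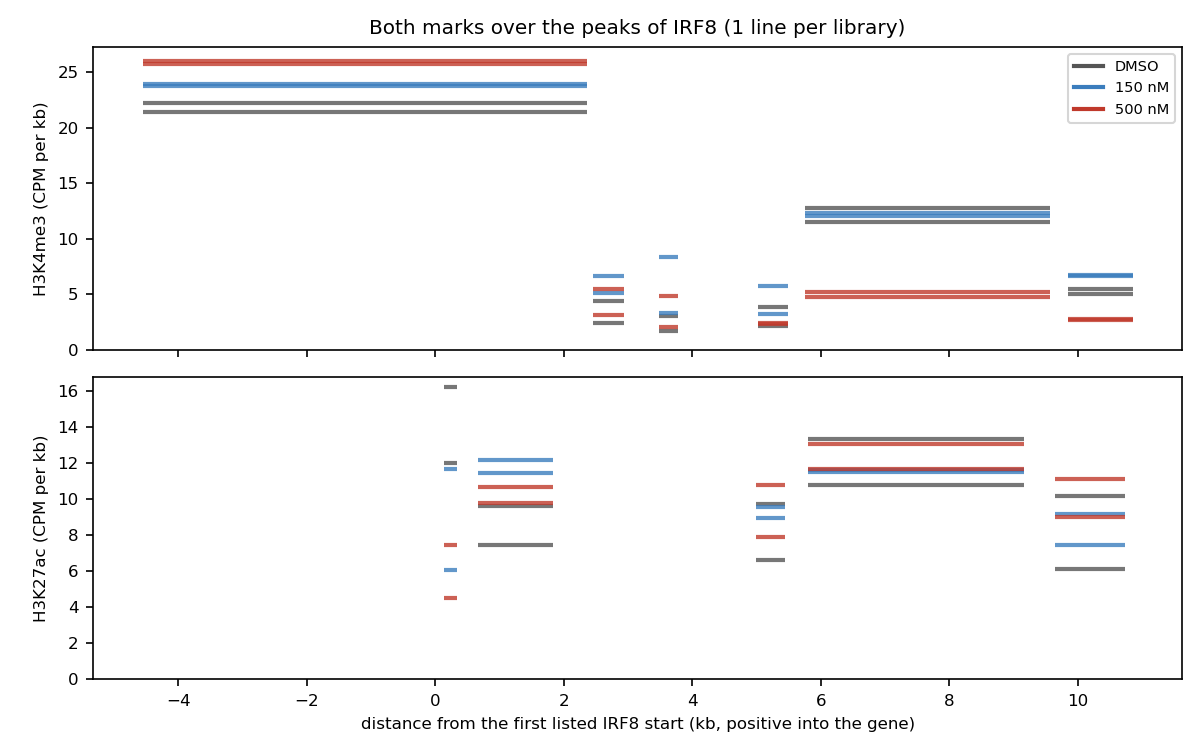
H3K4me3 (top) and H3K27ac (bottom) over the peaks of IRF8, in CPM per kb, against the distance in kb from the first listed start; each line spans 1 peak in 1 library. At the long intragenic peak the 500 nM lines of H3K4me3 are far below the rest, while the H3K27ac lines of the 3 groups mix. Before division by length, that H3K4me3 peak had 19.9 and 18.1 CPM at 500 nM against 43.7 to 48.5 CPM in the other libraries.

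The remaining enhancer peaks with less H3K4me3 lay in EBF1, SPIB, PAX5, IKZF1 and POU2AF1. An EBF1 peak 45494 bp into the gene (chr5:159051449-159053475) had 22.3 and 18.2 CPM in the DMSO libraries, 22.2 and 21.8 at the lower dose, and 14.5 and 10.7 at the higher dose. Its log2 fold change was -0.67 ± 0.12 (SE; edgeR adjusted p = 3.92e-06), called under every alternative. A SPIB peak 3346 bp past the start (chr19:50421991-50422577) had 3.27 and 3.24 CPM in DMSO and 1.27 and 1.63 at 500 nM, and its log2 fold change was -1.17 ± 0.32 (SE; edgeR adjusted p = 0.00246; DESeq2 0.0701). A PAX5 peak (chr9:36999218-37000164) went from 7.19 and 5.89 to 4.51 and 4.19 CPM, with a log2 fold change of -0.60 ± 0.20 (SE; edgeR adjusted p = 0.013). In each of these peaks both 500 nM libraries were below both DMSO libraries.

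IKZF1 had a called pair of such peaks just past its long promoter peak. The stronger one (chr7:50314389-50315613) went from 11.9 and 10.0 CPM in DMSO to 7.65 and 7.86 at 500 nM, a log2 fold change of -0.51 ± 0.15 (SE; edgeR adjusted p = 0.00446). The weaker one (chr7:50313639-50313976) went from 1.47 and 1.38 to 0.51 and 0.82 CPM, and its adjusted p of 0.0456 (edgeR) was the highest among the called peaks. In POU2AF1 a peak of 2802 bp (chr11:111362436-111365237) had 76.0 and 66.0 CPM in DMSO and 64.9 and 61.9 at 500 nM, a log2 fold change of -0.17 ± 0.05 (SE; edgeR adjusted p = 0.0105).

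Several of these calls depended on 1 library or on the tool. DESeq2 did not call the PAX5, POU2AF1 and both IKZF1 peaks (adjusted p = 0.171, 0.246, 0.112 and 0.276). The POU2AF1 peak was not called with loess offsets (adjusted p = 0.0622). Without the first DMSO library the PAX5 peak (adjusted p = 0.182), the POU2AF1 peak (0.548) and the stronger IKZF1 peak (0.119) were no longer called in edgeR, and without the second 500 nM library neither were the PAX5 (0.0584) and POU2AF1 (0.078) peaks. The weaker IKZF1 peak was lost whichever library was left out, except the second 500 nM library. It was also lost with the 150 nM pair as 1 sample (adjusted p = 0.0697), where 16 peaks of any class were called.

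The 2 peaks with more H3K4me3 were in EBF1 and BACH2. The EBF1 peak (chr5:158819405-158820090) lay 278209 bp into the gene and had 2.04 and 1.87 CPM in the DMSO libraries, 2.6 and 2.7 at the lower dose, and 3.83 and 3.17 at the higher dose, a log2 fold change of 0.84 ± 0.28 (SE; edgeR adjusted p = 0.0132). The BACH2 peak (chr6:90284274-90285947) had 5.96 and 3.73 CPM in DMSO and 8.42 and 5.82 at 500 nM, so the groups overlapped although it was called (log2 fold change 0.55 ± 0.20, SE; edgeR adjusted p = 0.0251). Both calls were lost with DESeq2 (adjusted p = 0.184 and 0.235) and with loess offsets (0.148 and 0.19). The EBF1 call was also lost without either DMSO library or without the first 500 nM library, and the BACH2 call without the second DMSO or the first 500 nM library (adjusted p = 0.349 and 0.526).

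**Figure D4:**
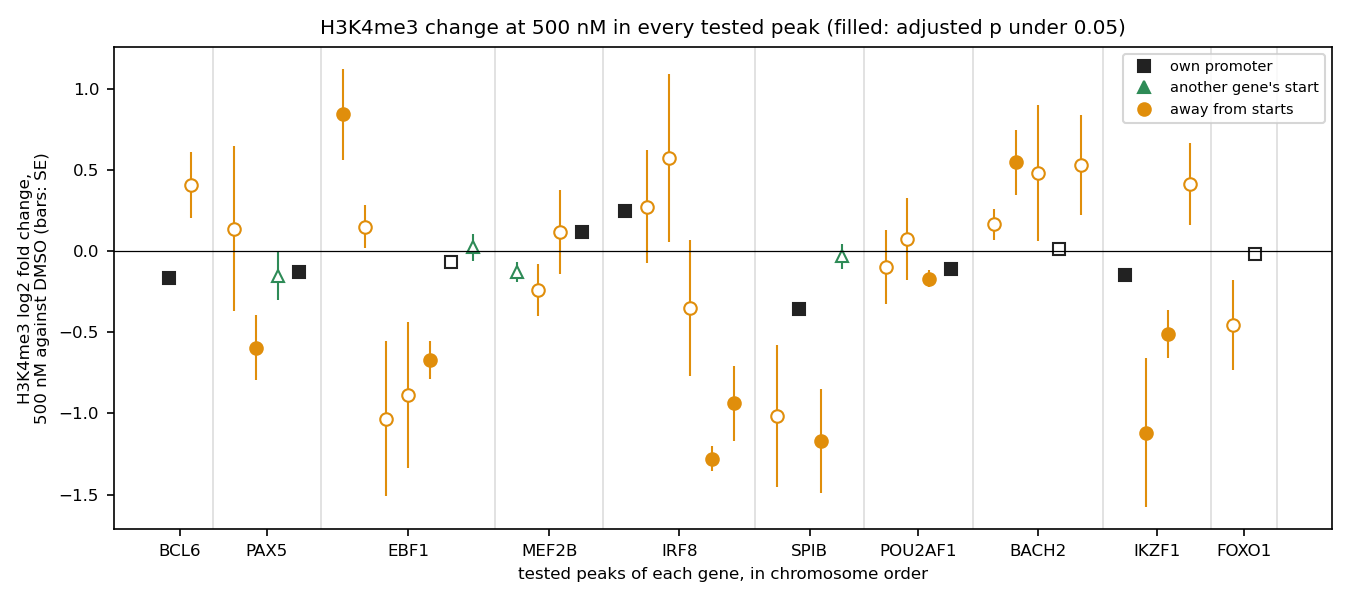
H3K4me3 log2 fold change of 500 nM against DMSO with its standard error for each of the 42 tested peaks, by gene; squares are promoter peaks, triangles peaks at neighbouring genes, circles enhancer peaks, and filled symbols have an adjusted p under 0.05. The promoter squares stay between -0.36 and 0.25, and the circles reach -1.28 in IRF8 and 0.84 in EBF1.

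Summed over all enhancer peaks of a gene, H3K4me3 was called in 7 of the 10 genes, with 6 lower and BACH2 higher, where 42.4% of all such gene sums were called, 27.3% higher and 15% lower. IRF8 had a log2 fold change of -1.09 ± 0.08 (SE; edgeR adjusted p = 5.2e-41) and SPIB one of -1.12 ± 0.25 (SE; edgeR adjusted p = 3.68e-05). PAX5, EBF1, POU2AF1 and IKZF1 ranged from -0.49 to -0.15, and BACH2 was at 0.27 (edgeR adjusted p = 0.00519). For POU2AF1 the groups overlapped (84.4 and 72.8 CPM in DMSO, 73.7 and 67.8 at 500 nM). Its call was lost in 7 alternatives, among them loess offsets and total-count scaling. BCL6, MEF2B and FOXO1 were not called. The median of the 10 was -0.28, beside 0.13 over all 6768 genes tested. DESeq2 called 2 of the 10, and 3 were called without the first DMSO library and 4 without the first 500 nM library.

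The lower dose gave no called difference in these peaks. None of 42 H3K4me3 peaks passed at 150 nM against DMSO in edgeR, where 0% of the whole table did, and 7 had an unadjusted p under 0.05. DESeq2 called none either. The IRF8 promoter was among the 7, with a log2 fold change of 0.13 and an edgeR adjusted p of 0.727. For 500 nM against 150 nM 18 of 42 were called, 2 higher and 16 lower, beside 39.2% over the whole series, 20.5% higher and 18.6% lower. The 2 higher were the IRF8 promoter (log2 fold change 0.12, edgeR adjusted p = 0.00359) and the peak at the start of MYBPC2 next to SPIB (0.20, edgeR adjusted p = 0.0396). With the 150 nM pair as 1 sample 14 were called, all lower, so neither of these rises passed. This comparison shares the 500 nM libraries with the one against DMSO, so the pair are not independent.

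H3K27ac enhancer peaks of the shared peak set made up 8.0% to 38.1% of each gene with its flanks of 10 kb. Per gene, the enhancer peaks numbered 61 in EBF1, 59 in BACH2, 26 in PAX5, 24 in IKZF1, 14 in FOXO1, 11 in MEF2B, 7 in SPIB, 6 in POU2AF1, 4 in BCL6 and 3 in IRF8. The EBF1 peaks summed to 1247 ± 28.5 CPM (SD, n = 2) over 83632 bp, which placed the gene at percentile 99.9 of 16157 genes with such peaks. BACH2 and IKZF1 were at percentiles 99.1 and 99.2. Such a sum grows with the length of the gene. The summed length of these peaks was 19.7% of the EBF1 gene with its flanks of 10 kb, 12.8% for BACH2 and 22.0% for IKZF1. It was larger for MEF2B (38.1%), POU2AF1 (34.2%) and SPIB (22.4%). For BCL6, IRF8, FOXO1 and PAX5 it was 14.3%, 11.3%, 9.7% and 8.0%. IRF8 had the lowest promoter sum of H3K27ac among these genes. Its 2 H3K27ac promoter peaks covered 1380 bp and summed to 13.0 ± 2.39 CPM, at percentile 26.3 of 16882 genes. Its H3K4me3 promoter peak of 6918 bp was at percentile 89.1 of 17770 genes. The other promoter sums of H3K27ac lay between percentile 62.7 (MEF2B) and 99.2 (IKZF1).

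JIB-04 left nearly all of this acetylation without a called difference. At 500 nM 1 of 225 tested H3K27ac peaks was called, where 0.923% of the whole H3K27ac table was, and 20 of the 225 had an unadjusted p under 0.05. The count became 5 without either 150 nM library and 6 when the 4 libraries of DMSO and 500 nM were fitted alone. The other 20 of the 245 peaks did not pass the filter on low counts. The called peak (chr19:19171553-19172911) lies upstream of MEF2B, inside the readthrough gene BORCS8-MEF2B, with its centre at -1969 bp from the MEF2B start, before the promoter sequence shown above. It had 9.88 and 10.4 CPM in the DMSO libraries, 8.29 and 7.16 at the lower dose, and 20.7 and 26.2 at the higher dose. Both 500 nM libraries were above the other 4 by a wide margin. The log2 fold change was 1.20 ± 0.20 (SE; edgeR adjusted p = 1.32e-04) against DMSO and 1.60 (edgeR adjusted p = 3.13e-07) against 150 nM, and the call against DMSO held under every alternative that kept this peak in the set. Against 150 nM it was the 1 called peak of 225, beside 1.27% over the whole series. No H3K4me3 peak overlapped it.

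None of the 14 H3K27ac promoter peaks passed at 500 nM in edgeR, where 0.772% of all tested peaks at gene starts did. An unadjusted p under 0.05 was found for 3 of the 14, in BACH2, MEF2B and IRF8. The BACH2 promoter peak had 161 and 171.5 CPM in the DMSO libraries, 160 and 168 at the lower dose, and 195 and 199.5 at the higher dose, with a log2 fold change of 0.25 ± 0.09 (SE; edgeR adjusted p = 0.207). Both 500 nM libraries were above the rest. BACH2 was called when either 150 nM library was left out (adjusted p = 0.00445 and 0.00778) or when the 4 libraries of DMSO and 500 nM were fitted alone (0.0091). The MEF2B promoter peak had 32.4 and 36.7 CPM in DMSO and 41.4 and 45.2 at 500 nM (log2 fold change 0.32 ± 0.14, SE; edgeR adjusted p = 0.325). The SPIB promoter peak had 67.6 and 73.0 CPM in DMSO and 58.0 and 63.4 at 500 nM (log2 fold change -0.21 ± 0.11, SE; edgeR adjusted p = 0.475).

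Gene sums of H3K27ac gave the same picture. None of the 10 promoter sums and none of the 10 enhancer sums was called in edgeR at 500 nM, beside 1.69% and 2.14% over all genes. The log2 fold changes ran from -0.21 (SPIB) to 0.32 (MEF2B) for promoters and from -0.17 (SPIB) to 0.10 (IRF8) for enhancer peaks. A long PAX5 peak reached the start of LOC105376032 and so counted as a neighbouring-gene peak, which the PAX5 enhancer sum leaves out. It had a mean of 229.1 CPM in DMSO and 183.5 at 500 nM (log2 fold change -0.32 ± 0.09, SE; edgeR adjusted p = 0.0529). No gene's strongest peak of the enhancer class was called. Those of EBF1 (177.5 and 172 CPM in DMSO, 161 and 159 at 500 nM), PAX5 (146 and 165.5; 159 and 152) and POU2AF1 (205 and 197; 208 and 221), had log2 fold changes between -0.12 and 0.09 and edgeR adjusted p of 0.639 or more, and over all 10 genes the range was -0.18 (MEF2B) to 0.26 (BACH2; edgeR adjusted p = 0.329). The standard errors of these 3 peaks were 0.08 to 0.10 in the fit of all 6 libraries, so a change as small as those of most H3K4me3 promoters may go uncalled there. At 150 nM 0 of 225 peaks were called in edgeR or DESeq2, where edgeR called 0.00185% of the table, and 9 had an unadjusted p under 0.05.

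**Figure D5:**
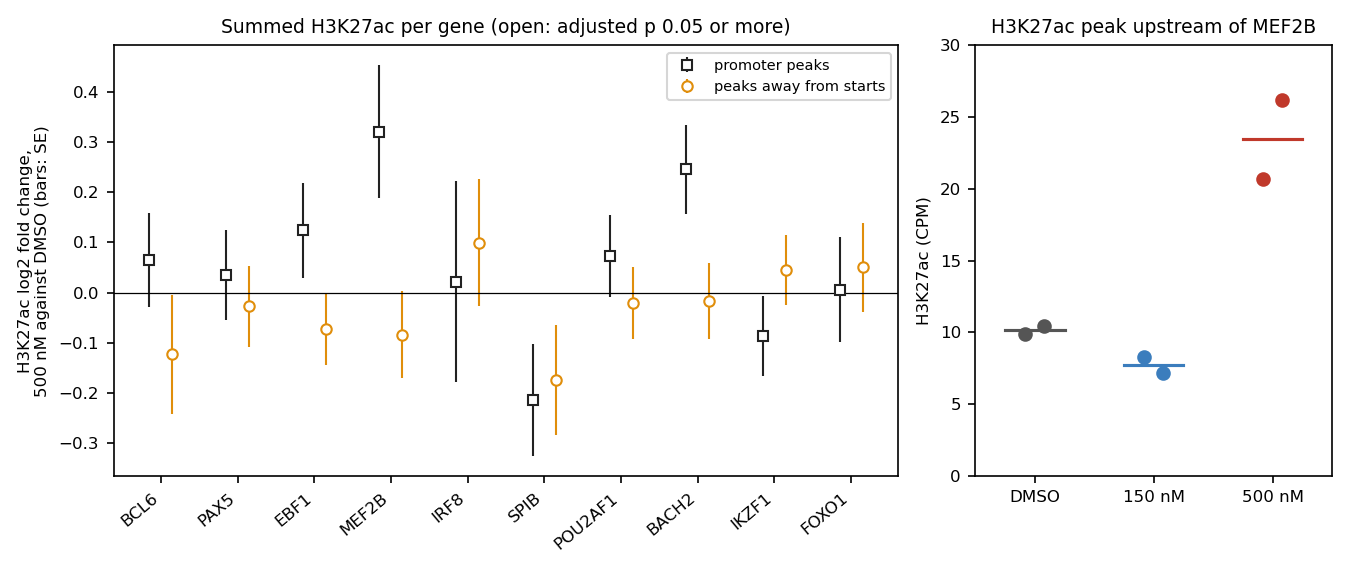
Left, H3K27ac log2 fold change of 500 nM against DMSO with its standard error, summed per gene over promoter peaks (squares) and enhancer peaks (circles); right, H3K27ac (CPM) per library in the peak upstream of MEF2B, with lines at the means of 2. The sums stay between -0.21 and 0.32, and the MEF2B peak goes from 9.88 and 10.4 CPM in DMSO to 20.7 and 26.2 CPM at 500 nM.

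The marks were set side by side where peaks of both overlapped. All 10 H3K4me3 promoter peaks and 26 of 29 H3K4me3 enhancer peaks overlapped an H3K27ac peak (by at least 1 bp), and 25 of 215 H3K27ac enhancer peaks overlapped an H3K4me3 peak. Over the called PAX5 enhancer peak lay a long H3K27ac peak (chr9:36999045-37007634) that also reaches the start of LOC105376032. It had 216 and 242 CPM in the DMSO libraries, 214 and 227 at the lower dose, and 192 and 175 at the higher dose, and its log2 fold change of -0.32 ± 0.09 (SE) had an edgeR adjusted p of 0.0529. It was called under 9 of the alternatives. Loess offsets (edgeR adjusted p = 0.0378), total-count scaling (0.0326) and no filter on low counts (0.0315) kept all 6 libraries. So did a mean count of at least 50 (0.0493), a replicate block (0.00799) and a batch term (0.0316). The rest were each fit without a 150 nM library (log2 fold change -0.32 in both) and the fit of the 4 libraries of DMSO and 500 nM (edgeR adjusted p = 2.18e-05). Over the stronger IKZF1 enhancer peak H3K27ac had a log2 fold change of -0.30 ± 0.12 (SE; edgeR adjusted p = 0.259, and 0.0351 or 0.0361 with the first or second 150 nM library left out), and over the SPIB one -0.34 ± 0.20 (SE; edgeR adjusted p = 0.527). Over the EBF1 enhancer peak with more H3K4me3 it was -0.12 ± 0.10 (SE; edgeR adjusted p = 0.727). At the other called enhancer sites the H3K27ac values lay on both sides of 0. Over the second IRF8 peak the log2 fold change was 0.33 ± 0.25 (SE; edgeR adjusted p = 0.658), and over the BACH2 peak 2 H3K27ac peaks had 0.41 ± 0.27 and 0.08 ± 0.16 (SE; edgeR adjusted p = 0.6 and 0.906). Over the EBF1 peak with less H3K4me3 2 H3K27ac peaks had -0.33 ± 0.32 and -0.24 ± 0.21 (SE; edgeR adjusted p = 0.746 and 0.723). The values were -0.13 ± 0.09 (SE; edgeR adjusted p = 0.65) over the POU2AF1 peak and -0.09 ± 0.08 (SE; edgeR adjusted p = 0.737) over the weaker IKZF1 peak. None of these H3K27ac values passed in the main edgeR fit (all 6 libraries, TMM scaling, treatment group only).

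Other regulators of the B lineage gave a background for the promoters. Of 20 such genes 18 had an H3K4me3 promoter peak (not ETS1 and SOX5), and their promoter sums were called in 12, 4 higher and 8 lower, beside 40.7% of all gene sums, 18.4% higher and 22.2% lower. The median log2 fold change was -0.07, and that of the 10 genes on the same measure was -0.09. The lower ones held partners of the genes above: POU2F2 (-0.39 ± 0.04, SE; edgeR adjusted p = 2.4e-12), which encodes the OCT2 protein that POU2AF1 binds, and SPI1 (-0.38 ± 0.04, SE; edgeR adjusted p = 1.68e-11), which encodes PU.1, the ETS relative of SPIB. The 4 higher were IRF4, XBP1, KLF2 and HHEX. Of these KLF2 had the largest log2 fold change, 0.96 ± 0.15 (SE; edgeR adjusted p = 2.12e-07). XBP1, a plasma cell factor, had one of 0.57 ± 0.06 (SE; edgeR adjusted p = 8.56e-12). PRDM1, another plasma cell factor of the list, was not called (0.13 ± 0.09, SE; edgeR adjusted p = 0.24). Of 4 genes for co-repressors that work with BCL6, NCOR1 was called lower (-0.11 ± 0.03, SE; edgeR adjusted p = 0.00499; not called in DESeq2, 0.135, with loess offsets, 0.239, with total-count scaling, 0.0537, or without the second DMSO library, 0.062), and BCOR, HDAC3 and TBL1XR1 were not. For H3K27ac none of the 17 regulators with a promoter peak and none of the 4 co-repressors was called in edgeR.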

How the data were processed

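ChIP-seq counts of H3K4me3 and H3K27ac in OCI-Ly1 cells were analysed, 12 of 30 libraries; the 6 libraries each of input, H3K9me2 and H3K9me3 were not analysed here. The deposited tables hold raw read counts per consensus peak, made by the authors with featureCounts 2.0.1, per the file headers, unstranded, where a read could enter more than 1 peak if a fraction of 0.2 overlapped. These headers carry the paired-end flag although the labels' protocols describe single-end 50 bp reads, so the counted unit may be a read or a fragment. Per the submitters' processing notes the build was GRCh38 and the tools were Trim Galore 0.6.7, BWA 0.7.17-r1188, Picard 2.27.4, MACS2 2.2.7.1, deepTools 3.5.1 and edgeR 3.42.4; how the consensus was made is not given in the sources used here. Starts are printed with 1 added, since the lowest deposited start is 0. Gene positions, starts and sequences are from RefSeq, GRCh38.p14. Exons, introns and UTRs were not analysed here. A few genes of the marker and co-repressor lists are not reported here.

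All 6 libraries of a mark entered 1 fit in edgeR 4.0.16 (R 4.3.3; filterByExpr by group, TMM, glmQLFit, glmQLFTest), with Benjamini-Hochberg adjustment over all tested peaks at 0.05; 20402 H3K4me3 and 54037 H3K27ac peaks were tested. SEs come from the F statistic. Counts were also summed per gene over promoter or enhancer peaks and tested over all genes. On simulated counts with 200 peaks changed by 1 on the log2 scale, the comparison of 500 nM with DMSO recovered 80% of them for H3K4me3 (4 false among 164 calls) and 47.5% for H3K27ac (6 false among 101). Reads carry no molecular identifiers and are not independent molecules. The 2 H3K4me3 libraries at 150 nM differed by less than the sampling noise (chi-square per degree of freedom 0.928, beside 1.11 for DMSO and 1.17 for 500 nM); their counts are not identical. They count as 1 sample in n; both stayed in the fits, and a fit with the rounded mean of their counts as 1 sample was added after seeing the data. For H3K27ac it was 1.3 in DMSO, 2.31 at 150 nM and 1.24 at 500 nM.

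Named with full values were, per gene and mark, the strongest promoter peak, up to 2 called rises and 2 called falls, and the strongest H3K27ac enhancer peak; other peaks near the threshold or over a called peak were named after their values were seen. The genes and lists were chosen with earlier results of these data known. Alternatives were other scalings, filters and windows, DESeq2 1.42.0, a block for the replicate number, a fit of only the 4 libraries of a contrast, each library left out, a stricter threshold and, for H3K27ac, a batch term seen in earlier results (the second DMSO and second 150 nM libraries against the rest). Figures were drawn with matplotlib 3.10.9.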

Additional observations from a re-analysis of the deposited data

How the results depend on the processing

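No value called against DMSO changed sign under any alternative fit in which it was followed. For 500 nM against 150 nM only the counts of calls were followed. Of the 42 tested H3K4me3 peaks 17 were called at 500 nM against DMSO; this was 8 in DESeq2, 11 at an adjusted p under 0.01, 26 within 50 kb of the genes, and 13 to 16 with a library left out. For 500 nM against 150 nM the 18 became 10 in DESeq2 and 15 to 19 with a library left out. The 7 genes called on promoter sums became 4 with loess offsets, and 5 to 8 with a library left out. The 7 called on non-promoter sums became 2 in DESeq2 and 3 to 7 with a library left out. With the 150 nM pair as 1 sample, an alternative chosen after seeing the data, the counts were 16, 0 and 14 for the 3 comparisons and 7 on either kind of sum. The cause was not tested, except that a wider window holds more peaks.

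For H3K27ac, 1 peak was called at 500 nM against DMSO. It became 2 with scaling by the total count, with loess offsets, with no filter, with a mean count of at least 50 and within 50 kb, 4 with the batch term, 6 with the 4 libraries alone, 0 inside the genes alone (the called peak lies outside MEF2B), and 1 to 5 with a library left out, the 5 without either 150 nM library. At 150 nM against DMSO the 0 became 2 without the first 150 nM library, otherwise 0. For 500 nM against 150 nM the 1 became 3 with the batch term, 2 within 50 kb, 0 inside the genes alone, and 1 to 6 with a library left out, the 6 without the first 150 nM library. The 0 genes called on promoter sums became 1, BACH2, with the batch term, the 4 libraries alone or without either 150 nM library. The count was also 1 with a promoter window of 2000 bp, where the gene called was not recorded. That window takes in the called peak upstream of MEF2B. The range was 0 to 1. The cause was not tested.

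Replicate numbers are shared across groups but nothing says that they mark shared cultures; the correlation of same-numbered deviations was 0.00167 to 0.0393 for H3K4me3 and 0.00216 to 0.139 for H3K27ac. With the replicate block, H3K4me3 calls were 18, 0 and 20 for the 3 comparisons, 8 genes on promoter sums and 7 on non-promoter sums. H3K27ac calls were 3, 0 and 4, with 1 gene on promoter sums and 0 on enhancer sums. The EBF1 H3K4me3 promoter (adjusted p = 0.022) and the long PAX5 H3K27ac peak (0.00799) were called with the block. H3K27ac libraries hold fewer reads than those of H3K4me3, and their 150 nM pair differed most (chi-square per degree of freedom 2.31); the part of either in the low number of H3K27ac calls was not tested.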
